A study of Mus musculus with 10 samples.

Results

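The genes described are 10 enzymes of glycolysis, chosen by name: the hexokinases Hk1 and Hk2, glucose-6-phosphate isomerase (Gpi1), the phosphofructokinase subunits Pfkl, Pfkm and Pfkp, aldolase A (Aldoa), phosphoglycerate kinase (Pgk1), pyruvate kinase M (Pkm) and lactate dehydrogenase A (Ldha). They were 10 of the 57010 genes in the deposited count table, and each of the 10 was among the 15539 genes expressed highly enough to be tested. The data were bulk RNA sequencing of mouse retina, 1 library from each of 10 mice injected at 6 to 8 weeks of age. In the AAV2-GFP group, 5 mice received into the vitreous an adeno-associated virus (AAV) with the AAV2 capsid that carried green fluorescent protein (GFP). In the AAV206-GFP group, 5 mice received the same reporter in the AAV206 capsid, which the title of the series describes as specific for the retinal pigment epithelium. Retinas of both groups were taken 14 days later. All 10 mice thus carried an AAV vector and GFP, and no uninjected retina was analysed here. The strain, the sex, the promoter of the GFP and the vector doses are not given in the sources used here.

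Glycolysis splits glucose into pyruvate and yields ATP without oxygen, and lactate dehydrogenase then turns pyruvate into lactate and restores the NAD+ that the pathway consumes. Photoreceptors are known for aerobic glycolysis: they make lactate at a high rate although oxygen is present, and neighbouring Müller glia and pigment epithelium can use that lactate as fuel. Photoreceptors express the hexokinase Hk2 and the M2 form of pyruvate kinase beside Hk1. Hexokinase, phosphofructokinase and pyruvate kinase catalyse the steps that run in a single direction and are the main points of control.

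Several of these genes are textbook targets of hypoxia-inducible factor (HIF), whose binding core is ACGTG or GCGTG. The 250 bases before each annotated start were therefore searched on both strands for these letters, with the palindrome CACGTG counted on both strands. RefSeq (GRCm38.p6) lists 18 starts for the 10 genes. The windows shown belong to the 5 genes that were lower in AAV206-GFP retinas (Gpi1, Pfkl, Pfkp, Aldoa and Pgk1) and to Hk2 and Ldha. Hk2 is shown because its difference had the opposite sign, and Ldha because its window holds the most matches. Each runs 5′ to 3′ on the strand of the gene and ends before the start of transcription, and capitals mark either core or its reverse complement. Bases inside the transcript of another annotated model of the gene (53 in Pfkl, 6 in Pfkp) were left out.
Gpi1: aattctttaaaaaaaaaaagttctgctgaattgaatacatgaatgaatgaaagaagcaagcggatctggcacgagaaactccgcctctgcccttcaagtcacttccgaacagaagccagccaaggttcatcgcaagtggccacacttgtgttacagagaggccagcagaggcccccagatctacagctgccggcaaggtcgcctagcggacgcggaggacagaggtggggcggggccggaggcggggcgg
Pfkl: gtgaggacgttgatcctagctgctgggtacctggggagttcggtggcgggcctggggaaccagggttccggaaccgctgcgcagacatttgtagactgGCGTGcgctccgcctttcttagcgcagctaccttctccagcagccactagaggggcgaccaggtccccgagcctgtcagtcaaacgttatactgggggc
Pfkp: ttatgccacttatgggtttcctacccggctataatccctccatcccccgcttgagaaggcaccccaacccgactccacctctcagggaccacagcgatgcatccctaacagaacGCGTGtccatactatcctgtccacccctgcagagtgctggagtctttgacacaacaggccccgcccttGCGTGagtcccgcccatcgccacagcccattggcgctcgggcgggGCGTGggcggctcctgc
Aldoa: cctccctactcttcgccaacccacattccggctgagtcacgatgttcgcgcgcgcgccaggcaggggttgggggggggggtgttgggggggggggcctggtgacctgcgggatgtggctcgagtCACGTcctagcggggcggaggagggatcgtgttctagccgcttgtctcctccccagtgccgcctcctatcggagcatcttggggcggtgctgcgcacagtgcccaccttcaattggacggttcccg
Pgk1: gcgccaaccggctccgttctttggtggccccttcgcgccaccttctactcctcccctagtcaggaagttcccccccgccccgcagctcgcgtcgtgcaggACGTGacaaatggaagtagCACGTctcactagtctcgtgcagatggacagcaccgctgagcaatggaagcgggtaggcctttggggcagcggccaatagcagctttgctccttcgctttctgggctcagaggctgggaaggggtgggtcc
Hk2: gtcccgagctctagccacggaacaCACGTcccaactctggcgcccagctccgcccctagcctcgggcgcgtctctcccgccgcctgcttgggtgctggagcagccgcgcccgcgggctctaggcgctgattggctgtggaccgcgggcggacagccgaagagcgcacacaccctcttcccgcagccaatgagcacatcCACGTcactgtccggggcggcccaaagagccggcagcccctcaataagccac
Ldha: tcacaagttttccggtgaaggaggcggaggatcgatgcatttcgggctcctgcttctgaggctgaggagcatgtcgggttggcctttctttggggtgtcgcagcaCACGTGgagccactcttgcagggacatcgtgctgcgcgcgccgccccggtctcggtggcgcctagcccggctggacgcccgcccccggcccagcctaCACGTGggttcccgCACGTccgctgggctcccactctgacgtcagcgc
The windows lie at chr7:34230337-34230586 (minus strand, Gpi1), chr10:78009808-78010004 (minus strand, Pfkl), chr13:6648778-6649021 (minus strand, Pfkp), chr7:126799255-126799504 (minus strand, the second of 3 starts of Aldoa), chrX:106186850-106187099 (plus strand, Pgk1), chr6:82774455-82774704 (minus strand, Hk2) and chr7:46845554-46845803 (plus strand, the upstream of 2 starts of Ldha).

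Of the 10 enzymes, 9 had ACGTG or GCGTG before at least 1 of their starts, and Gpi1 was the exception. Genes with several starts had more windows in which to hold a match, and a share by gene over all genes was not computed. Ldha had 5 matches before its upstream start, 4 of them in 2 copies of CACGTG. By window, 13 of 18 held either core (72.2%), beside 38.6% of all 32851 promoter windows of the same length. These letters are more frequent in GC-rich sequence: among windows with at least 60% GC, 63.8% of 9178 held a match, and 9 of the 10 windows of these enzymes did. TAATCC, a core bound by the photoreceptor factor CRX, was found on either strand in 3 of the 18 windows, before Pfkp, the fourth start of Pfkm and the second start of Ldha, beside 6.25% of all windows. The windows of Hk2 and Pgk1 each held 2 copies of ACGTG.

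Levels are given as CPM, counts scaled to 1 common library size after correction for composition by trimmed mean of M values (TMM). Total counts ran from 10989843 to 12752604 per library, so each of the 10 enzymes rested on between 1332 and 49459 counts in every library. Differences were tested with edgeR's quasi-likelihood F test over all 15539 genes, with p-values adjusted by the Benjamini-Hochberg method and a threshold of 0.05. The labels give 5 mice per group, and replicates are separate mice as far as those labels say. The retinal label matched the rod markers, whose 7 genes summed to between 50691 and 59931 CPM.

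Of the 10 enzymes, 5 fell in AAV206-GFP relative to AAV2-GFP retinas, 0 rose and 5 did not pass. Across all genes tested, 11.2% were called, 5.30% lower and 5.95% higher. The log2 fold change was negative for 9 of the 10 enzymes, and their median was -0.22, while the median over all genes tested was -0.0095. The 5 that fell were Gpi1, Pfkl, Pfkp, Aldoa and Pgk1, by log2 fold changes between -0.60 and -0.19. The 2 groups did not overlap for 4 of them (Gpi1, Pfkl, Aldoa and Pgk1). Of all genes tested, 9.78% had groups that did not overlap, and 4.36% were lower without overlap.

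**Figure D1:**
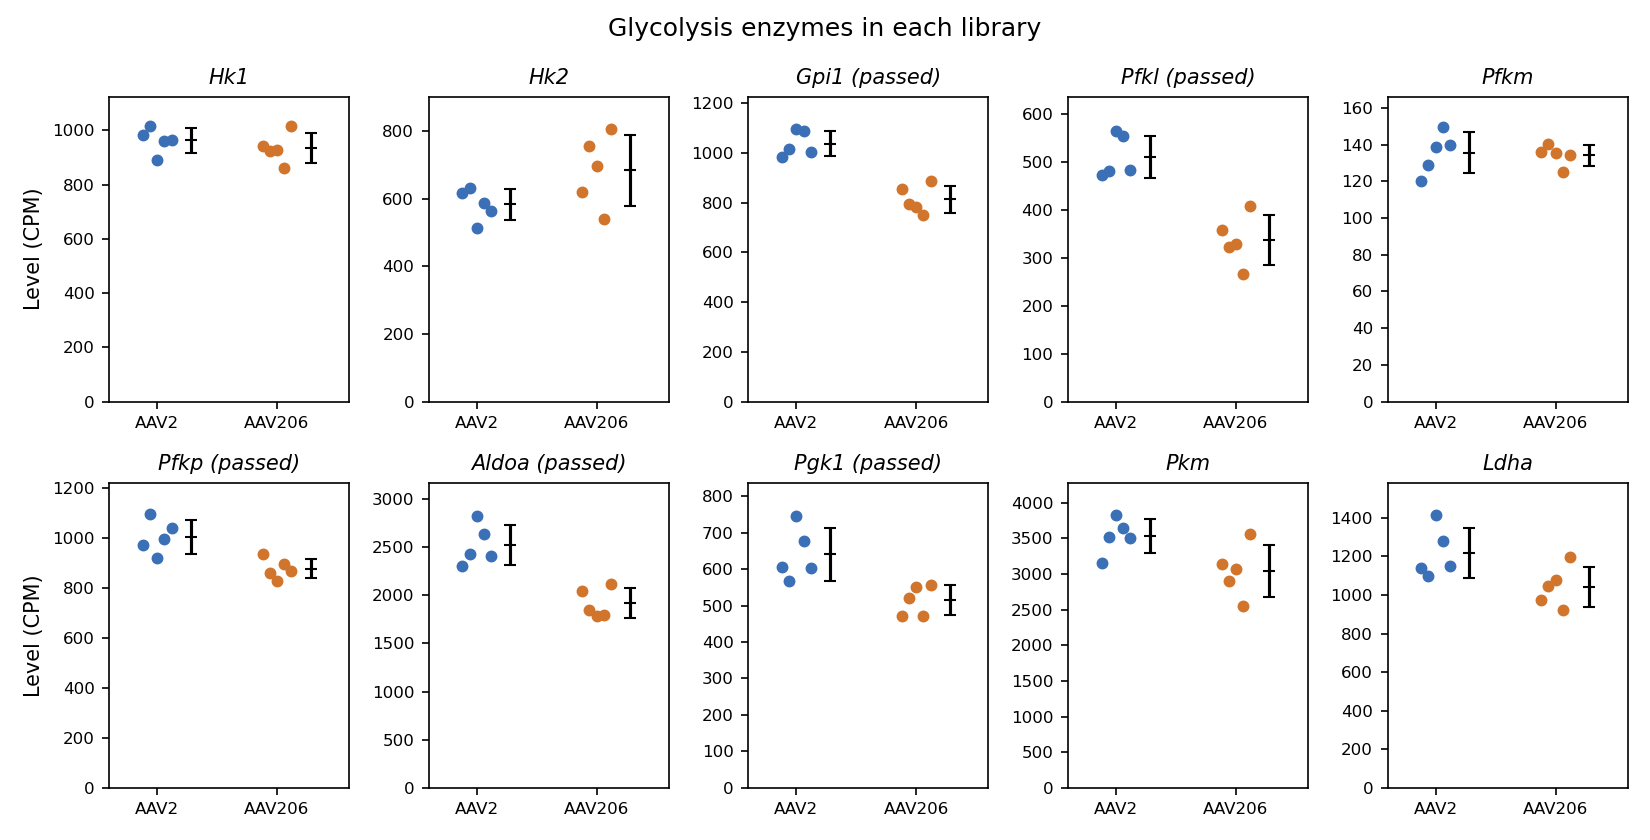
Level of each of the 10 glycolysis enzymes (y axis, CPM, from 0) in the 5 AAV2-GFP (blue) and 5 AAV206-GFP (orange) libraries, with the group mean and SD beside the points. The groups are apart for Gpi1, Pfkl, Aldoa and Pgk1 and overlap for the other 6 genes, and "passed" marks an edgeR adjusted p under 0.05.

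Hexokinase traps glucose in the cell by phosphorylating it, and neither of its main retinal forms passed the test. Hk1, the widely expressed form that binds mitochondria, had 985, 1015, 892, 962 and 965 CPM in AAV2-GFP replicates 1 to 5 and 944, 924, 928, 862 and 1015 CPM in AAV206-GFP replicates 1 to 5. The means were 964 ± 45.5 and 934 ± 54.9 CPM (SD, n = 5 each), a log2 fold change of -0.04 (SE 0.06, edgeR adjusted p = 0.646). The groups overlapped along most of their ranges. Hk2, the inducible form, had 618, 633, 513, 586 and 565 CPM in AAV2-GFP and 620, 756, 698, 541 and 806 CPM in AAV206-GFP. It was the single enzyme of the 10 with a positive difference, 583 ± 47.2 against 684 ± 106 CPM (log2 fold change 0.23, SE 0.09, edgeR adjusted p = 0.118). In 3 AAV206-GFP libraries Hk2 lay above every AAV2-GFP library, while replicate 4 lay near the low end. Without AAV206-GFP replicate 4 the log2 fold change of Hk2 was 0.30 and passed (edgeR adjusted p = 0.0368). With all libraries, limma-voom with sample weights also called Hk2 higher (log2 fold change 0.25, adjusted p = 0.0477).

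Gpi1 converts glucose 6-phosphate to fructose 6-phosphate. Its level was 982, 1017, 1097, 1086 and 1001 CPM in the AAV2-GFP libraries and 853, 795, 780, 752 and 886 CPM in the AAV206-GFP libraries. Every AAV206-GFP library lay below every AAV2-GFP library. Gpi1 fell from 1037 ± 51.8 to 813 ± 54.9 CPM, a ratio of 0.784 (log2 fold change -0.35, SE 0.06, edgeR adjusted p = 0.00152).

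Phosphofructokinase commits the sugar to glycolysis and is a tetramer assembled from the liver (Pfkl), muscle (Pfkm) and platelet (Pfkp) subunits. Of the 3 subunit genes, Pfkl and Pfkp fell and Pfkm did not pass. Pfkl was 473, 480.5, 563, 553 and 483 CPM in AAV2-GFP and 357, 322, 328, 265 and 408 CPM in AAV206-GFP. It fell to 0.658 times its AAV2-GFP level, from 510 ± 43.7 to 336 ± 52.3 CPM (log2 fold change -0.60, SE 0.09, edgeR adjusted p = 0.000855). This was the largest change among the 10 enzymes, with no overlap between the groups.

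Pfkp, the subunit gene with the most counts, was 973, 1098, 920, 997 and 1041 CPM in AAV2-GFP and 937, 862, 831, 896 and 868 CPM in AAV206-GFP. It fell from 1006 ± 67.6 to 879 ± 39.98 CPM (log2 fold change -0.19, SE 0.06, edgeR adjusted p = 0.0418). Only AAV2-GFP replicate 3, at 920 CPM, lay within the AAV206-GFP range. The call of Pfkp stood near the threshold and was lost when any of 7 single libraries was left out (AAV2-GFP replicate 2, 4 or 5, or AAV206-GFP replicate 2, 3, 4 or 5), with edgeR adjusted p between 0.0689 and 0.101. Its log2 fold change stayed between -0.23 and -0.16 in every fit made. Pfkm was 120, 129, 139, 150 and 140 CPM in AAV2-GFP and 136, 140, 135, 125 and 134 CPM in AAV206-GFP. Its means of 136 ± 11.2 and 134 ± 5.57 CPM gave a log2 fold change of -0.015 (SE 0.06, edgeR adjusted p = 0.907), and the AAV206-GFP values lay inside the AAV2-GFP range.

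The subunits were also set against each other within a library, per kilobase of the longest transcript, a length on which the size of each share depends. Pfkl made up 32.1 ± 2.64% of the phosphofructokinase total in AAV2-GFP retinas and 25.8 ± 3.01% in AAV206-GFP retinas (SD, n = 5 each), and the highest AAV206-GFP share (29.9%) lay just above the lowest AAV2-GFP share (29.4%). The share of Pfkm was 11.03 ± 0.699% (10.2% to 11.8%) in AAV2-GFP and 13.4 ± 0.687% (12.8% to 14.2%) in AAV206-GFP, without overlap. The share of Pfkp was 56.9 ± 3.15% and 60.9 ± 2.94%, with overlap. The log2 ratio of Pfkl to Pfkm lay between 1.79 and 2.02 in AAV2-GFP libraries and between 1.085 and 1.603 in AAV206-GFP libraries. A difference between the subunits' changes was not tested.

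For hexokinase, Hk2 made up 31.5 ± 0.832% (30.4% to 32.4%) of the step in AAV2-GFP and 35.6 ± 2.66% (32.4% to 38.3%) in AAV206-GFP, so the lowest AAV206-GFP share stood at the highest AAV2-GFP share. Aldoc, the brain form of aldolase, had a higher share beside Aldoa in AAV206-GFP retinas: its part of the aldolase total was 8.58 ± 0.239% against 11.02 ± 0.589%, without overlap.

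**Figure D2:**
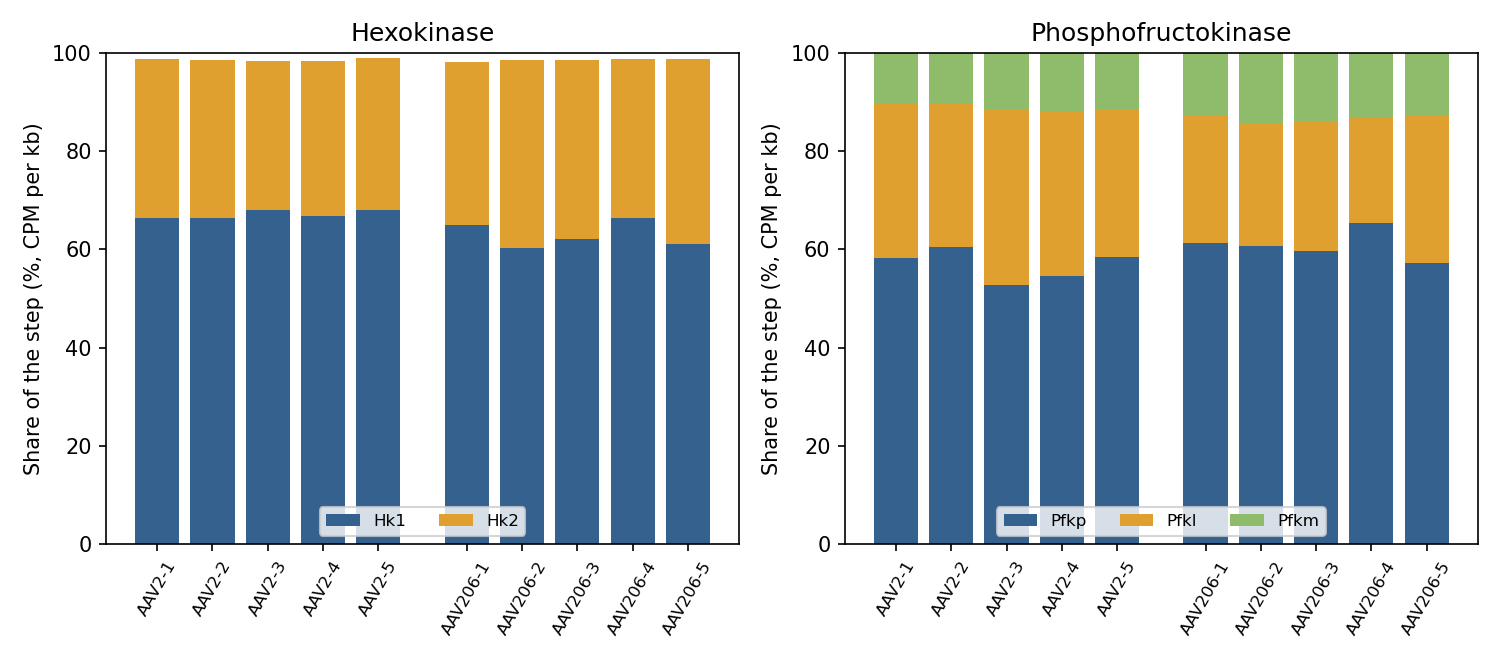
Share of each gene in the hexokinase total (left) and the phosphofructokinase total (right) of a library (y axis, % of summed CPM per kilobase), 1 bar per library. The Hk2 part is 30.4% to 32.4% in AAV2 and 32.4% to 38.3% in AAV206 bars, the Pfkl part is 29.4% to 35.9% in AAV2 and 21.5% to 29.9% in AAV206 bars, and the small gap above the hexokinase bars is low-level genes of the step.

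Aldoa splits fructose 1,6-bisphosphate into a pair of 3-carbon sugars. Its level was 2304, 2422, 2825, 2634 and 2409 CPM in AAV2-GFP and 2043, 1848, 1786, 1789 and 2119 CPM in AAV206-GFP, with no overlap. Aldoa fell from 2519 ± 209 to 1917 ± 154 CPM, a ratio of 0.761 (log2 fold change -0.39, SE 0.07, edgeR adjusted p = 0.00165). The table holds 2 identifiers with the symbol Aldoa, and the one with more counts (ENSMUSG00000030695) was used.

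Pgk1 makes the first ATP of the pathway. It was 606, 568, 747, 677 and 601 CPM in AAV2-GFP and 472, 520, 551, 471.5 and 556 CPM in AAV206-GFP. The lowest AAV2-GFP library stood just above the highest AAV206-GFP library. Pgk1 fell from 640 ± 71.7 to 514 ± 41.3 CPM (log2 fold change -0.32, SE 0.08, edgeR adjusted p = 0.0174). Without AAV2-GFP replicate 4 its edgeR adjusted p was 0.0515, and without AAV206-GFP replicate 4 it was 0.0506.

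Pkm and Ldha close the pathway and did not pass. Pkm, which makes pyruvate and the last ATP, was 3159, 3517, 3825, 3644 and 3509 CPM in AAV2-GFP and 3135, 2894, 3062, 2547 and 3556 CPM in AAV206-GFP. Its means were 3531 ± 244 and 3039 ± 368 CPM (log2 fold change -0.22, SE 0.08, edgeR adjusted p = 0.0762). AAV206-GFP replicate 5 reached the middle of the AAV2-GFP range, while the other AAV206-GFP libraries lay below every AAV2-GFP library. The table counts Pkm as 1 gene, so its M1 and M2 splice forms were not separated.

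Ldha was 1141, 1098, 1413, 1278 and 1152 CPM in AAV2-GFP and 973, 1044, 1077, 922 and 1196 CPM in AAV206-GFP. Its means were 1216 ± 129 and 1042 ± 105 CPM (log2 fold change -0.22, SE 0.08, edgeR adjusted p = 0.0804). The overlap again came from AAV206-GFP replicate 5, and the other AAV206-GFP libraries lay below the AAV2-GFP range. Without that library both passed, at an edgeR adjusted p of 0.0207 for Pkm and 0.0343 for Ldha. DESeq2 called both with all libraries, at adjusted p = 0.0428 for Pkm and 0.0404 for Ldha. Pkm also passed with limma-voom and sample weights (adjusted p = 0.0330) and without AAV2-GFP replicate 1 (edgeR adjusted p = 0.0416).

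Per kilobase of the longest annotated transcript, Aldoa (1626 ± 135 CPM per kb) and Pkm (1452 ± 100) were the most abundant of the 10 enzymes in AAV2-GFP retinas, followed by Ldha (670 ± 71.1). Aldoa lay above Pkm in each of the 5 libraries, while the ranges of the genes over the libraries overlapped. Next came Gpi1 (359 ± 18.0 CPM per kb) and Pgk1 (351 ± 39.3), then Pfkp (243 ± 16.3) and Hk1 (225 ± 10.6), and within each of these pairs the levels overlapped. Pfkl (137 ± 11.7 CPM per kb), Hk2 (106 ± 8.56) and Pfkm (47.1 ± 3.89) were lowest. In AAV206-GFP retinas Hk2 (124 ± 19.2 CPM per kb) stood above Pfkl (90.1 ± 14.02), the reverse of the order in AAV2-GFP. Pkm (1249.5 ± 151 CPM per kb) and Aldoa (1237 ± 99.4) were nearly level in AAV206-GFP retinas, with the mean of Pkm above that of Aldoa. Orders among the middle genes depend on the length used: per kilobase of all annotated exons, Pgk1 (285 CPM per kb) stood above Gpi1 (161) and Hk2 (97.7) above Pfkl (76.5) in AAV2-GFP retinas, and Pfkl stood level with Pfkp (75.0).

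The rest of the pathway was read from the same test. Among 18 other glycolytic genes, 13 were tested, of which 4 fell, 2 rose and 7 did not pass, with a median log2 fold change of 0.0010. Those that fell were the abundant forms of the remaining steps. Tpi1, triose phosphate isomerase, fell from 679 ± 83.0 to 510 ± 32.7 CPM (log2 fold change -0.41, edgeR adjusted p = 0.00321). Pgam1, phosphoglycerate mutase, fell from 927 ± 81.2 to 662 ± 40.9 CPM (log2 fold change -0.49, edgeR adjusted p = 0.000291), and Eno1, the widely expressed enolase, fell from 2486 ± 200 to 1988 ± 126 CPM (log2 fold change -0.32, edgeR adjusted p = 0.00420). For these 3 genes the groups did not overlap. Gapdh, often used as a reference gene, fell from 3036 ± 245 to 2613 ± 126 CPM (log2 fold change -0.22, edgeR adjusted p = 0.0298), with overlap, and kept its call in 4 of 10 fits with a library removed.

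Eno3, the muscle enolase, was low in retina and rose from 19.7 ± 1.23 to 25.4 ± 2.78 CPM (edgeR adjusted p = 0.0209), a call that held in 6 of 10 fits with a library removed. The neuronal enolase Eno2 had a log2 fold change of -0.15 (edgeR adjusted p = 0.160). Aldoc stood at 425 ± 41.6 and 426 ± 15.8 CPM and Ldhb, the heart form of lactate dehydrogenase, at 135 ± 11.4 and 131 ± 10.4 CPM. The edgeR adjusted p was 0.995 for Aldoc and 0.696 for Ldhb. The hexokinase paralog Hkdc1 stood at 10.8 and 11.3 CPM. The paralogs Hk3, Gapdhs, Pgk2, Pklr and Ldhc were too low to test, with at most 50 counts in any library. A count of 3, the floor for a count of 0, corresponds to 0.232 to 0.274 CPM.

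**Figure D3:**
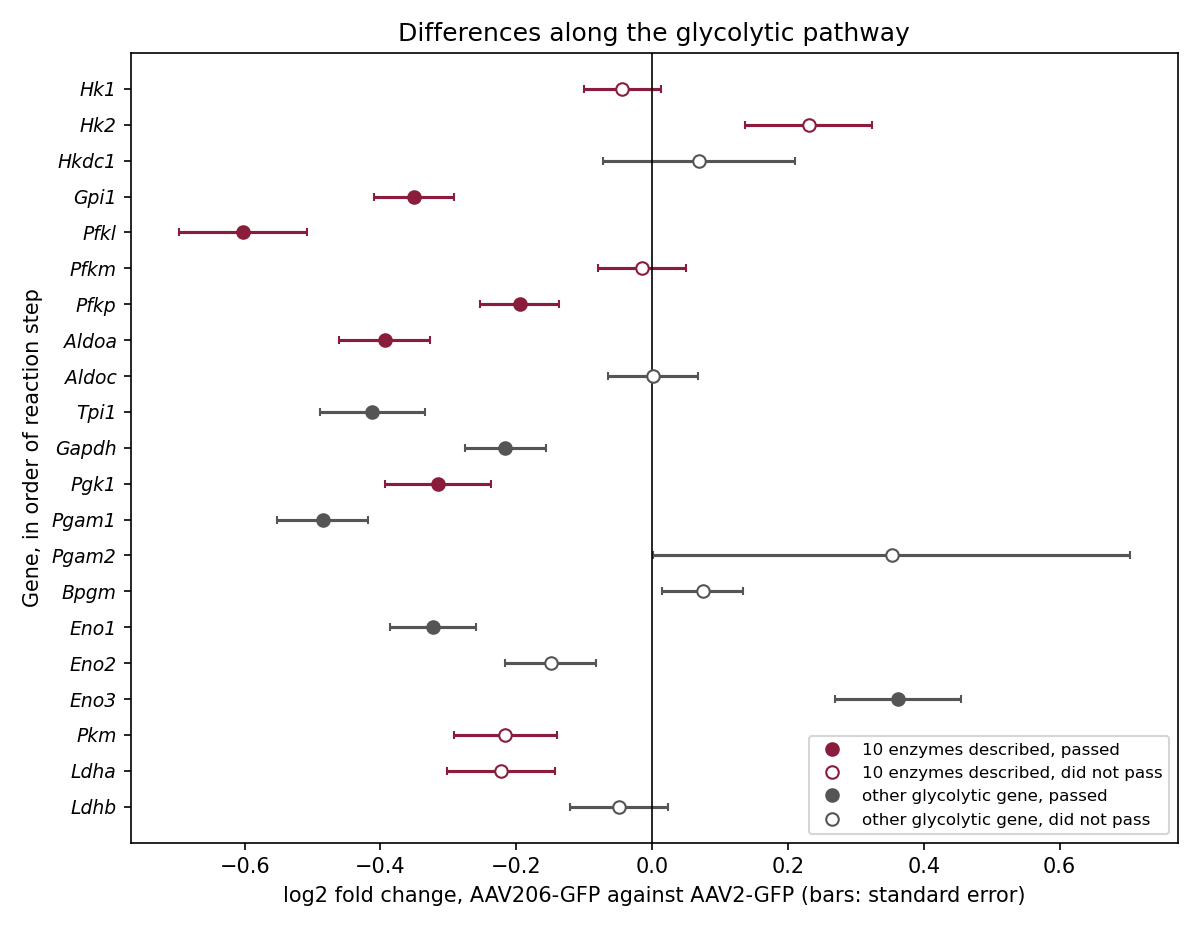
Log2 fold change, AAV206-GFP against AAV2-GFP (x axis), of the 10 enzymes (dark red) and other tested glycolytic genes (grey) in order of reaction step, with the standard error as bars and filled points for an edgeR adjusted p under 0.05. From Gpi1 to Ldha the abundant gene of each step lies left of 0. Hk2 at 0.23, Eno3 at 0.36, Pgam2 at 0.35, Bpgm at 0.074 and Hkdc1 at 0.069 lie to the right, and Aldoc lies at 0.0010.

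By step, the summed CPM per kilobase of the genes was lower in AAV206-GFP retinas at 10 of the 11 steps. The AAV206-GFP to AAV2-GFP ratio was 1.04 at hexokinase, 0.784 at the isomerase, 0.817 at phosphofructokinase, 0.782 at aldolase and 0.752 at triose phosphate isomerase. It was 0.861 at glyceraldehyde phosphate dehydrogenase, 0.804 at phosphoglycerate kinase, 0.715 at the mutase, 0.816 at enolase, 0.861 at pyruvate kinase and 0.872 at lactate dehydrogenase. The phosphofructokinase total was 427 ± 15.2 and 349 ± 17.5 CPM per kb. These sums are descriptions without a test.

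Of 10 tested regulators of the pathway, Pdk1 fell and the others did not pass. Pdk1, a kinase that switches off pyruvate dehydrogenase, went from 57.3 ± 2.87 to 45.6 ± 3.43 CPM (log2 fold change -0.33, edgeR adjusted p = 0.00592), without overlap. Hif1a, the oxygen-sensitive subunit of HIF, stood at 647 ± 36.8 and 714 ± 65.7 CPM (log2 fold change 0.14, edgeR adjusted p = 0.181). Among 11 other tested HIF-inducible genes, 2 fell and 0 rose, with a median log2 fold change of -0.23. These were Bnip3, a mitophagy receptor, which fell from 119 ± 14.5 to 93.2 ± 2.46 CPM (edgeR adjusted p = 0.00816), and the collagen prolyl hydroxylase P4ha1, which fell from 79.2 ± 9.04 to 63.0 ± 8.72 CPM (edgeR adjusted p = 0.0397). P4ha1 kept its call in 3 of 10 fits with a library removed, and lost it with a replicate block (edgeR adjusted p = 0.0622). Of the 11 HIF-inducible genes, 9 had a negative and 2 a positive log2 fold change. The groups did not overlap for 2 that were lower and for 1 that was higher but did not pass, beside 9.78% of all genes tested. The angiogenic factor Vegfa stood at 174 ± 11.04 and 150 ± 19.2 CPM (log2 fold change -0.21, edgeR adjusted p = 0.110).

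Of 11 tested transporters of glucose, lactate and pyruvate and their partners, 3 fell and 0 rose, with a median log2 fold change of -0.15. The lactate exporter Slc16a3 (MCT4) fell from 66.3 ± 11.4 to 45.2 ± 11.9 CPM (edgeR adjusted p = 0.0299), with overlap. Its call held in 4 of 10 fits with a library removed and was lost with robust dispersions (edgeR adjusted p = 0.0901). The mitochondrial pyruvate carrier subunit Mpc2 fell from 37.4 ± 3.99 to 29.5 ± 2.65 CPM (edgeR adjusted p = 0.0230), a call that held in 7 of those 10 fits. Basigin (Bsg), the chaperone of the lactate transporters, fell from 690 ± 51.8 to 591 ± 50.4 CPM (edgeR adjusted p = 0.0488), and kept its call in 3 of 10 fits with a library removed. It also lost the call under upper-quartile scaling, both other filters and the replicate block, with edgeR adjusted p of up to 0.118 over its alternatives. The main glucose transporter Slc2a1 (GLUT1) stood at 224 ± 16.4 and 203 ± 26.4 CPM (edgeR adjusted p = 0.28), and the lactate transporter Slc16a1 (MCT1) at 249 ± 4.24 and 279 ± 27.4 CPM (edgeR adjusted p = 0.12).

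In the pentose phosphate pathway, which branches off at glucose 6-phosphate, 2 of 7 tested genes fell and 0 rose, with a median log2 fold change of -0.11. Rpe, which here is ribulose-phosphate 3-epimerase and not the tissue of that abbreviation, fell from 31.0 ± 2.74 to 18.6 ± 2.02 CPM (log2 fold change -0.74, edgeR adjusted p = 0.000172). Transaldolase (Taldo1) fell from 86.0 ± 11.2 to 61.5 ± 8.75 CPM (log2 fold change -0.49, edgeR adjusted p = 0.00649). None of the 5 genes of the pyruvate dehydrogenase complex passed the edgeR test, and 0 of 5 had an unadjusted p under 0.05. Over these lists together, 12 of 57 tested genes fell and 2 rose.

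In bulk tissue, fewer cells of a type and less RNA per cell cannot be told apart. The summed rod markers ran from 50691 to 53965 CPM in AAV2-GFP and from 54518 to 59931 CPM in AAV206-GFP libraries, with 2 of 7 markers called higher. The 8 cone markers summed to 846 to 951 CPM in AAV2-GFP and 949 to 1012 CPM in AAV206-GFP, with 2 called higher. The summed rod markers were thus higher in the group where 5 glycolysis enzymes were lower. Müller glia markers summed to 1960 to 2865 CPM and 2090 to 2446 CPM, and 0 of 5 passed the edgeR test, while 2 had an unadjusted p under 0.05. All 5 Müller glia markers had negative log2 fold changes, with a median of -0.19, and for Kcnj10, their potassium channel, the groups did not overlap (73.7 ± 2.80 and 64.8 ± 4.398 CPM, edgeR adjusted p = 0.0649). Erythrocyte markers were higher in AAV206-GFP (101 to 319 CPM against 67.8 to 85.8 CPM, 4 of 5 called). Lens markers were lower (1.61 to 15.8 CPM against 14.6 to 33.2 CPM, 2 of 4 tested called), as were 1 of 5 endothelial markers and 1 of 4 tested markers of the retinal pigment epithelium. Also called lower were 1 of 5 ganglion cell markers and 1 of 5 tested markers of microglia and macrophages. Of all genes tested, 5.30% were called lower and 5.95% higher. Log2 fold changes were positive for 1 endothelial and 2 ganglion cell markers, and negative for 3 of 7 rod and 2 of 8 cone markers. No marker list had a gene at 0 in every library, and the part of these cells in the results was not tested.

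AAV2-GFP replicates 1 and 4 stood apart by interferon-stimulated genes, whose 6 genes summed to 446 and 481 CPM there and to between 73.5 and 122 CPM in the other 8 libraries. Replicate 1 also had the highest microglia and macrophage markers, 136 CPM beside 16.3 to 33.6 CPM elsewhere. Without these libraries Gpi1 (log2 fold change -0.36), Pfkl (-0.61) and Aldoa (-0.42) passed, with edgeR adjusted p of 0.00855, 0.00320 and 0.00525. Pfkp and Pgk1 did not pass there, with log2 fold changes of -0.22 and -0.32 and edgeR adjusted p of 0.0893 and 0.0519.

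The difference between the groups also moved with the base composition and length of transcripts. Grouped by transcript, tested genes had a median log2 fold change of 0.045 under 40% GC and of -0.12 over 60% GC. Split by length into 3 equal classes, they had medians of 0.054 in the longest and -0.093 in the shortest. Transcripts of the 10 enzymes had 48.9% to 57.7% GC, with a median of 54.1% against 49.9% for all genes tested. For transcripts over 60% GC, AAV206-GFP replicate 4 lay lowest, 0.22 below the gene means on the log2 scale, and AAV2-GFP replicate 3 lay highest, 0.19 above. Libraries of both groups lay on either side of 0.

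With a smooth term for GC and length in each library, chosen after the data were seen, the same 5 enzymes passed and 0 rose, beside 12.8% of all genes tested called (6.17% lower and 6.68% higher). The log2 fold change was -0.33 for Gpi1, -0.57 for Pfkl, -0.23 for Pfkp, -0.27 for Aldoa and -0.26 for Pgk1, with edgeR adjusted p between 9.92e-05 and 0.00612. Aldoa moved most, from -0.39. The median of the 10 enzymes was -0.19, and that of all genes -0.0044. Tpi1 (-0.32), Pgam1 (-0.41) and Eno1 (-0.22) also passed, whereas Gapdh at -0.088 (edgeR adjusted p = 0.107), Bsg (0.117) and Mpc2 (0.142) did not. The glucose transporter Slc2a3 had not passed without the GC and length terms (edgeR adjusted p = 0.0894), though its groups did not overlap. With the terms it passed as lower (log2 fold change -0.21, edgeR adjusted p = 0.0321).

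**Figure D4:**
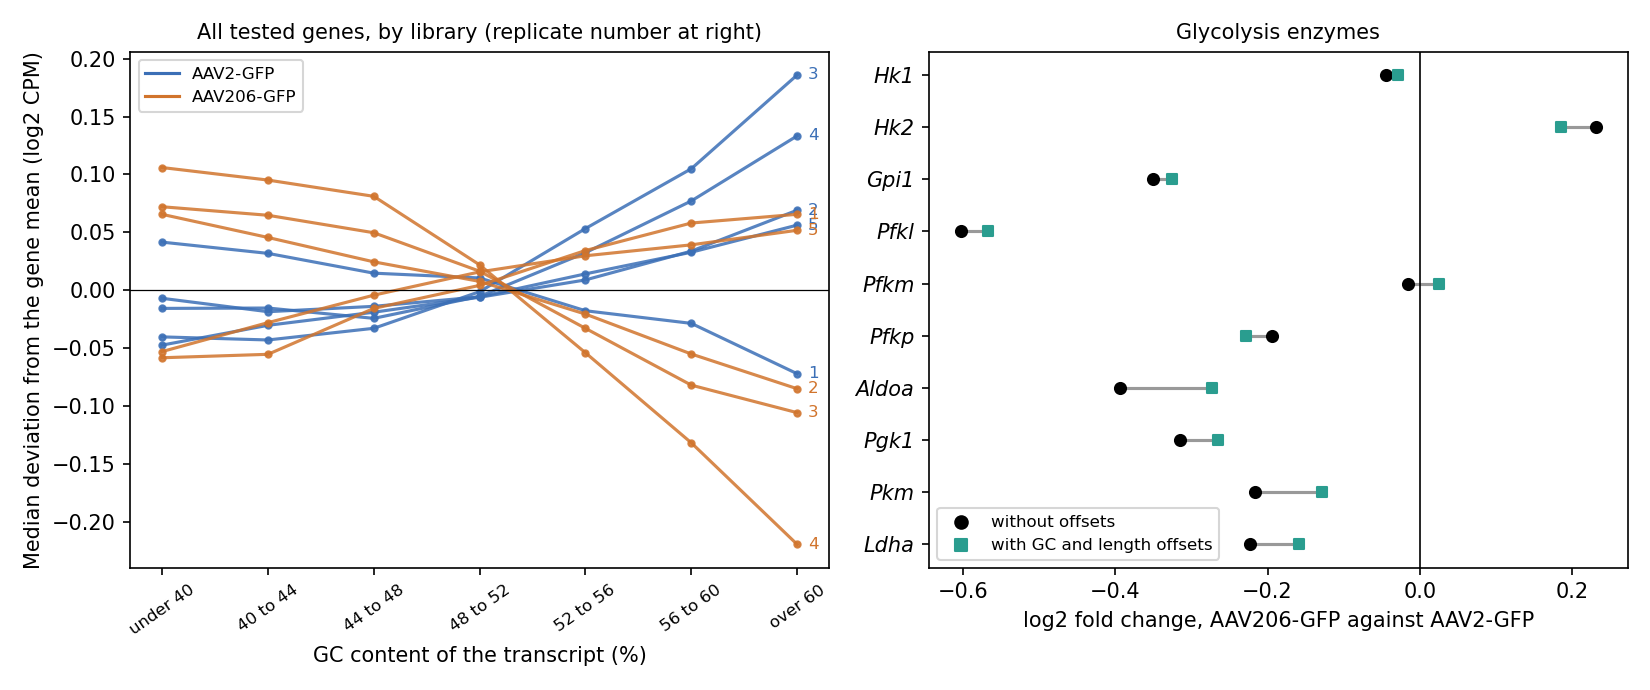
Left, median deviation of a library from the gene means (y axis, log2 CPM) over genes grouped by transcript GC content (x axis, %), 1 line per library with its replicate number. Right, log2 fold change of the 10 enzymes without (circles) and with (squares) GC and length terms: Gpi1, Pfkl, Pfkp, Aldoa and Pgk1 stay between -0.57 and -0.23 with the terms, and Pfkm moves from -0.015 to 0.025.

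Some counts could not be assigned to 1 gene with certainty. Pfkp, Pgk1, Pkm, Gapdh, Eno1, Pgam1 and Rpe had estimated counts with decimals in all 10 libraries, as when reads are shared with a near-identical copy, so their values are uncertain. Exons of Aldoa overlap those of Fam57b on the other strand, those of Pfkp overlap Pitrm1, those of Pfkm overlap Senp1, those of Gpi1 overlap the non-coding gene Gm26762 on the other strand, and those of Pkm overlap Gm49759, a model annotated as awaiting experimental evidence, on the same strand. The sources used here do not say whether counting used the strand, so reads in those overlaps cannot be told apart. Over the 10 libraries the table gave Aldoa 259991 counts and Fam57b 119115, and the log2 fold change of Fam57b was 0.17, not past the threshold (edgeR adjusted p = 0.129).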

How the data were processed

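Bulk RNA sequencing libraries of retina from 5 AAV2-GFP and 5 AAV206-GFP mice were compared, grouped by their titles. Per the labels' protocols, Trizol was used for total RNA, the NEBNext Ultra RNA kit for the libraries and a NovaSeq for paired reads. The submitters' processing notes name STAR 2.7.10b, RSEM 1.3.1 and mm10 without roles or order. The values the authors deposited are estimated counts for genes, left unscaled; 15.7% of those above 0 carry decimals, and they were rounded to whole numbers. Totals were 10989843 to 12752604 per library. Symbols, exons and transcripts came from GENCODE M21, promoter windows from RefSeq GRCm38.p6.

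Genes kept by filterByExpr (minimum count 10) were scaled by TMM and tested with the quasi-likelihood F test of edgeR 4.0.16 in R 4.3.3, without covariates, and adjusted by Benjamini-Hochberg over 15539 genes with a threshold of 0.05. Standard errors are the absolute log2 fold change over the square root of F. Named genes were the 10 enzymes, 13 further genes whatever their result, every other listed gene past the threshold, and low paralogs by level. The enzymes and lists were chosen with earlier results of these data known. Fits were tested on simulated data. Alternatives were other scalings and filters, DESeq2 1.42.0, limma 3.58.1 (voom with sample weights), robust dispersions, a replicate block, leaving out libraries, and GC and length terms (loess, span 0.3). Replicates within a group differed by more than sampling noise (chi-square per degree of freedom 3.68 to 22.3). Some listed genes are counted with their lists but not reported here by name.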

Additional observations from a re-analysis of the deposited data

Results flagged for a closer look

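Ldhb, the heart form of lactate dehydrogenase, stood at 112.67 CPM in AAV206-GFP replicate 4, while the other 4 AAV206-GFP libraries lay between 132.61 and 138.68 CPM. The library was far from the others of its group (a gap of 0.767 of the group's range, above Dixon's critical value of 0.71 for 5 samples). It was 1 of 84 groups of values examined, of which chance alone would give about 4.2.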

How the results depend on the processing

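The 5 glycolysis enzymes called, and the sign of their difference, were recomputed in 21 alternative fits. Gpi1, Pfkl and Aldoa passed in all 21, with log2 fold changes of -0.38 to -0.32, -0.68 to -0.53 and -0.43 to -0.27. Leaving out 1 library gave 3 to 6 called enzymes, 7 to 14 other pathway genes and 991 to 1912 genes in all. The lowest of these counts came without AAV2-GFP replicate 4 (3, 7 and 991). Without AAV206-GFP replicate 4, 3 enzymes were lower and 1 (Hk2) higher. Other pathway genes called numbered 8 without AAV2-GFP replicate 3, 9 without replicate 5, and 8 or 9 without any of AAV206-GFP replicates 1 to 4. With all libraries, DESeq2 called 7 enzymes, all lower, and 2265 of all 15539 genes (1086 lower). Limma-voom with sample weights called 7 enzymes, of which 6 were lower and 1 higher, and 2157 of all 15539 genes (992 lower). Both tests thus called more genes over the whole table than the main fit, which called 1747 (823 lower). Without AAV2-GFP replicates 1 and 4 the counts were 3, 8 and 985. The median over the 10 enzymes stayed between -0.28 and -0.19 in all fits. Genes with differences near 0 changed sign: Aldoc was -0.0067 with library sizes alone, -0.0043 with no filter, -0.019 without AAV2-GFP replicates 1 and 4, and -0.032 to 0.055 when 1 library was left out. Ldhb was -0.073 to 0.0024 when 1 library was left out and 0.060 with GC and length terms, and Pfkm was -0.054 to 0.022 and 0.025. The cause was not tested. Over 31 named genes and 21 fits, 551 results kept side and direction, 78 lost the call, 9 gained it and 13 changed sign.

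Same-numbered libraries showed little shared deviation from their group means over all genes: their correlations were -0.042 to 0.025, and 1 of 10 correlated best with its own number. These correlations cannot show whether same-numbered mice were paired by design. With a replicate block 1085 genes, 4 glycolysis enzymes (without Pfkp, adjusted p = 0.0825) and 10 other pathway genes passed the edgeR test.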
